A study of Mus musculus with 21 samples.

Results

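The taste, trace amine and formyl peptide receptors were taken from the RNA-seq table by symbol. Every gene whose symbol began with Tas1r, Tas2r, Taar or Fpr followed by a digit or a hyphen was a member, whatever its level. They numbered 61 of 37620 genes, with 3 Tas1r, 35 Tas2r, 16 Taar and 7 Fpr genes, and 60 of them were annotated as protein coding (Taar7c-ps was a pseudogene). All RNA-seq libraries came from wild-type C57BL/6J (B6) mice at 12 days post-partum (dpp), and no allele or treatment was applied. Germ cells were enriched from testes by collagenase and trypsin digestion, and RNA-seq was run on 12 libraries under 4 sample numbers (186wt, 343wt, 444wt and 456wt), each with 3 libraries. The study used RNA-seq to ask how gene expression relates to the use of recombination hotspots by PRDM9, the zinc finger protein that places hotspots. The samples for DNA binding and histone marks were not analysed here.

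These receptors are cell surface proteins that signal through G proteins. TAS1R1 pairs with TAS1R3 as the umami receptor and TAS1R2 pairs with TAS1R3 as the sweet receptor. TAS2R proteins detect bitter compounds, most TAAR proteins detect volatile amines in the olfactory epithelium, FPR1 and FPR2 detect formylated peptides on neutrophils and macrophages, and several Fpr-rs genes are used by vomeronasal neurons. Taste receptor genes and their G proteins are also known from testis and sperm.

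The cells of the label were spermatocytes, and all 8 meiotic spermatocyte markers were at 0.1 FPKM or more. FPKM is a count of sequenced fragments scaled to the length of the transcript and to the total of the library, and so a level per length. Prdm9 was at 13.2 ± 1.24 FPKM and Dmc1, the meiotic recombinase, at 20.1 ± 7.25 FPKM (each mean ± SD, n = 4 sample numbers, the 3 libraries of a number averaged). The preparation also held RNA of somatic cells. Over the 4 numbers the 6 Sertoli cell markers summed to 1905 to 3435 FPKM and the meiotic markers to 244.9 to 389.3 FPKM. The Sertoli sum was led by Clu at 1844 ± 573.8 and Aard at 580.4 ± 174.4 FPKM. Its other markers were between 9.25 (Fshr) and 105.6 FPKM (Wt1). The median marker was at 87.8 FPKM for Sertoli cells and 31.9 FPKM for meiotic cells. Such sums of different genes do not measure how much RNA each cell type gave. The 6 spermatogonia markers summed to between 292.3 and 442.6 FPKM, the 4 peritubular myoid markers to between 227.7 and 978.9, the 5 Leydig cell markers to between 15.8 and 107.4, and the 4 endothelial markers to between 12.1 and 29.9. All markers of these lists were at 0.1 FPKM or more and all were called different between numbers. Over all genes 55.3% reached 0.1 FPKM, and 58.2% of those tested were called. Of 8 markers of pachytene cells and spermatids 5 reached 0.1 FPKM, led by Ldhc at 7.18 and Tnp1 at 0.96 FPKM, 3 were called (Ldhc, Tnp1 and Prm1), and Prm2 was at 0 in all libraries. In RNA of mixed cells, fewer cells of a type and less RNA per cell cannot be told apart.

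The members whose RNA was measured in every library were Tas1r1 and Tas1r3, and the sequence before their start sites is shown with that of Tas1r2, the Tas1r gene that was near 0. Each sequence was taken from the 250 bases before the RefSeq start (RefSeq build GRCm38.p6) and matched 1 place in NCBI build 37. It is printed 5′ to 3′ along the gene, up to the earlier of the RefSeq and GENCODE M1 start sites, with CpG dinucleotides in capitals.
Tas1r1, chr4:151412678-151412849, minus strand: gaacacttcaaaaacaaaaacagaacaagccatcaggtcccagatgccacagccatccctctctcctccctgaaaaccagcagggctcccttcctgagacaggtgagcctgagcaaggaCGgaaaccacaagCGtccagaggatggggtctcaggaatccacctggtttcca
Tas1r3, chr4:155237472-155237712, minus strand: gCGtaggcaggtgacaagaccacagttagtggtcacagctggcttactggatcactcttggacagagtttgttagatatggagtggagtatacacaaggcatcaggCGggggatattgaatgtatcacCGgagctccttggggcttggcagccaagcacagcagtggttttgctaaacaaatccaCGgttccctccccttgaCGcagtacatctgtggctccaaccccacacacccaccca
Tas1r2, chr4:139209203-139209452, plus strand: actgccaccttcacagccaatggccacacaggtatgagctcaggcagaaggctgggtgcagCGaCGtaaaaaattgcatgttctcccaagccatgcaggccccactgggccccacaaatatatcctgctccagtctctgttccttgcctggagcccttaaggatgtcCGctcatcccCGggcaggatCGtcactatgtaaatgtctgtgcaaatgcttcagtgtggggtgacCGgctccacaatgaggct
The printed stretches hold 2, 5 and 6 CpG. Over the full 250 bases the counts were 4 for Tas1r1, 5 for Tas1r3 and 6 for Tas1r2. Of all promoters 37.8%, 44.4% and 49.6% had fewer CpG than these. The counts are close, and these few genes cannot show whether CpG goes with level.

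RefSeq promoters were found for 52 of the 61 members. Their median was 1 CpG in 250 bases, against 6 over 32851 promoters of all genes, and their median GC content was 35.4% against 52.4%. The letters TATAAA, read on both strands, were in 34.6% of the members' promoters and in 12.4% of all promoters. The letters CCAAT were in 40.4% against 33.8%, and GGGCGG was in 0 of 52 against 32.7% of all promoters. By family the median CpG count was 5 for Tas1r, 1 for Tas2r, 1 for Taar and 0 for Fpr. None of the 3 Tas1r promoters held TATAAA or GGGCGG, and that of Tas1r2 held CCAAT. A match of letters is a description of the window and not a binding site. Of the 61 members 50 were annotated with 1 exon, and whether their annotated starts are true start sites was not tested.

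Of the 61 receptors, 2 had a mean of at least 0.1 FPKM, which is 3.28%, against 55.3% of all genes of the table and 74.2% of the 22337 protein-coding genes. Both were Tas1r genes. In all 12 libraries 51 members were listed at 0, which is 83.6%, against 27.7% of all genes. Those at 0 were 31 of 35 Tas2r, 15 of 16 Taar and 5 of 7 Fpr genes, and none of the 3 Tas1r genes. The median level of the members was 0 FPKM, against 0.195 FPKM over all genes and 3.01 FPKM over protein-coding genes. Summed over the 61 members the level was 1.82 FPKM in 186wt, 1.53 in 343wt, 2.26 in 444wt and 1.94 in 456wt. Tas1r1 and Tas1r3 held nearly all of that sum, since the other 59 members together came to between 0.0567 and 0.203 FPKM in a number.

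**Figure D1:**
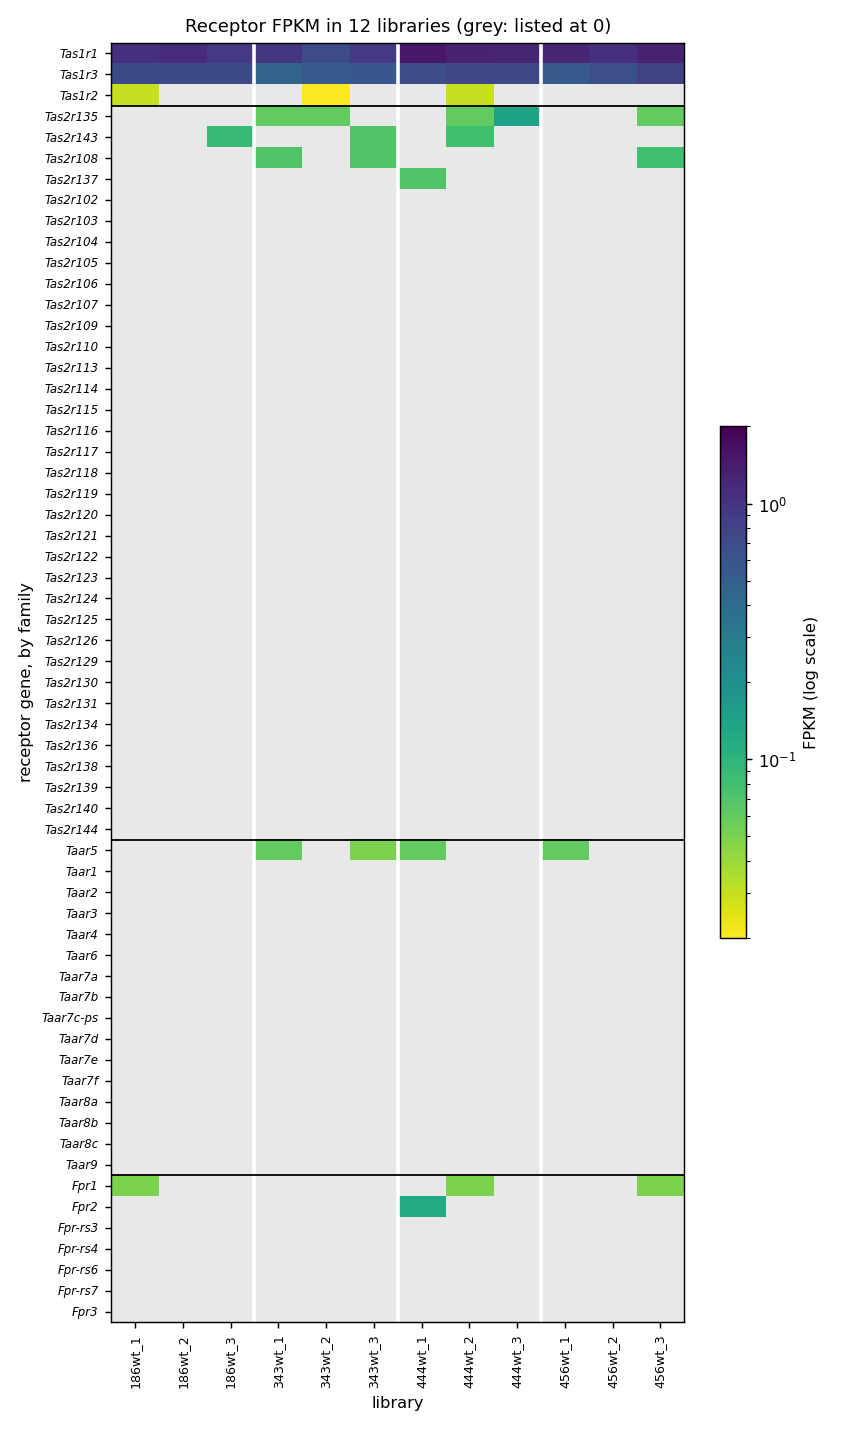
Each row is 1 of the 61 receptors, grouped by family with the highest mean first, and each column is 1 of the 12 libraries, 3 for each sample number. Colour gives FPKM on a log scale and grey marks a value listed at 0. Tas1r1 and Tas1r3 are coloured across all 12 libraries, 8 other members have colour in 1 to 5 libraries each, and 51 rows are grey throughout.

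The depth sets what a value of 0 can mean. It was estimated from the smallest non-zero values of 906 short genes (300 to 1200 bp), whose steps gave about 14500000 fragments per library (95% confidence interval 14200000 to 14900000). The interval covers the fit only, and not the assumption that such a value stood for 1 fragment. This estimate was not compared with the read depth that the paper reports. At that depth 1 fragment on a transcript of 1000 bp was worth 0.0736 FPKM in a library. For the 51 members at 0, whose transcripts were 888 to 1268 bp long, 3 fragments over the 12 libraries would have given a mean between 0.0143 and 0.0209 FPKM. That is about the 95% upper limit for 1 gene with 0 fragments, and it covers counting error only. Among 51 such genes, some could lie above it by counting alone. A level below that limit could have left 0 fragments by counting alone.

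Tas1r1 (ENSMUSG00000028950), the subunit particular to the umami receptor, was the highest of the 61 members. It lies on chromosome 4 from 151402023 to 151412677 (build 37, minus strand), with a coding transcript of 2863 bp in 6 exons and a transcript with a retained intron of 4698 bp. The 3 libraries of 186wt had 1.08, 1.12 and 0.93 FPKM, and those of 343wt had 0.97, 0.69 and 0.92 FPKM. Higher values of 1.48, 1.26 and 1.25 FPKM were found in 444wt, and 456wt had 1.23, 1.06 and 1.27 FPKM. The libraries of 444wt were all above those of 343wt and of 186wt, while those of 456wt were all above those of 343wt and overlapped with 186wt and 444wt. Over the sample numbers the mean was 1.10 ± 0.201 FPKM (SD, n = 4). This was above the level of 62.6% of all genes of the table, but below the median of protein-coding genes (3.01 FPKM). At the estimated depth this equals about 539 fragments in all if they came from the coding transcript.

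Tas1r3 (ENSMUSG00000029072), the subunit common to the umami and sweet receptors, came next. It lies on chromosome 4 from 155233377 to 155237471 (minus strand) and has 1 transcript of 3523 bp in 6 exons. Its libraries had 0.71, 0.73 and 0.73 FPKM for 186wt and lower values of 0.45, 0.54 and 0.57 FPKM for 343wt. For 444wt they had 0.67, 0.75 and 0.75 FPKM, and for 456wt they were spread more widely at 0.54, 0.65 and 0.82 FPKM. Libraries of 343wt were all below those of 186wt and 444wt, and those of 456wt overlapped with each of the other numbers. The mean was 0.659 ± 0.0961 FPKM (SD, n = 4), or about 397 fragments in all. As levels per length, the lowest number of Tas1r1 (0.86 FPKM) was above the highest of Tas1r3 (0.723 FPKM).

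Tas1r2 (ENSMUSG00000028738), the subunit particular to the sweet receptor, was not measured beyond single fragments. It lies on chromosome 4 from 139209453 to 139226195 (plus strand). It had 0.03 FPKM in 1 library of 186wt, 0.02 FPKM in 1 of 343wt and 0.03 FPKM in 1 of 444wt, and 0 in the other 9 libraries. Each value equals about 1 fragment, and the mean was 0.00667 ± 0.00471 FPKM (SD, n = 4).

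**Figure D2:**
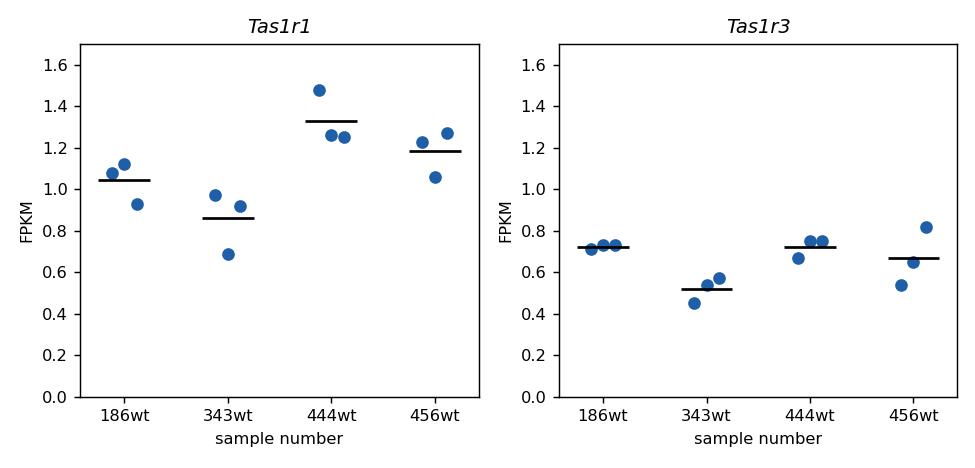
Points are the FPKM of single libraries for Tas1r1 (left) and Tas1r3 (right) by sample number, and the lines are the means of 3 libraries, on the same linear axis from 0. For both genes 343wt has the lowest mean (0.86 and 0.52 FPKM).

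The 4 sample numbers share strain and age, and whether their receptor levels differed was tested with limma's moderated F-test on log2(FPKM + 0.1), with Benjamini-Hochberg adjustment over 20795 genes. The methods count as many replicates of germ cells as there are sample numbers, and what separates the libraries of a number is not given in the sources used here. Each number may therefore be 1 replicate, and p-values measure the spread between its libraries, which may be technical, so a call says only that these samples differed. Of the members 2 could be tested and 1 was called, and 58.2% of all genes tested were called. Tas1r1 differed between numbers (F = 4.99, adjusted p = 0.0361 by limma with Benjamini-Hochberg adjustment). The difference 444wt minus 343wt was 0.58 ± 0.16 (SE) on the log2(FPKM + 0.1) scale (limma adjusted p = 0.00978), and 456wt minus 343wt was 0.43 ± 0.16 (limma adjusted p = 0.0479). The other 4 pairs of numbers were not called for Tas1r1. Each pair was adjusted over the genes tested, with no allowance for testing several pairs. Tas1r3 was not called (F = 2.37, limma adjusted p = 0.178), and its difference 444wt minus 343wt was 0.41 ± 0.18 (limma adjusted p = 0.0809).

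The call of Tas1r1 was lost when any 1 of 7 libraries was left out, namely replicates 2 and 3 of 343wt, all 3 of 444wt and replicates 1 and 3 of 456wt, and the limma adjusted p ran from 0.0373 to 0.105 over the 12 such fits. With a whole sample number left out it was 0.216 without 343wt and 0.143 without 444wt. Markers of other cells also moved between the numbers. The Sertoli cell markers summed to 3243 FPKM in 186wt, 3435 in 343wt, 1905 in 444wt and 2032 in 456wt. This sum ranked the numbers in the reverse of the order of Tas1r1. Clu, the highest of the list, ranked them so too. All 6 markers were higher in 186wt and 343wt than in 444wt and 456wt, where Tas1r1 was higher. Sox9, Wt1, Amh, Aard and Fshr departed from the reverse order only within these pairs of numbers. The meiotic markers summed to 301.2, 244.9, 389.3 and 286.8 FPKM in 186wt, 343wt, 444wt and 456wt. The spermatogonia markers summed to 292.3, 318.5, 442.6 and 371.1 FPKM. None of the markers of these 3 lists was at 0, and their part in the difference of Tas1r1 was not tested.

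Bitter receptors were near or at 0. Tas2r135, Tas2r143, Tas2r108 and Tas2r137 were the 4 of 35 Tas2r genes with any fragment, and all other members of the family were at 0 in all libraries. Tas2r135 (chromosome 6, 42355433 to 42356525) had 0.06 and 0.06 FPKM in 2 libraries of 343wt, 0.06 and 0.14 FPKM in 2 of 444wt and 0.06 FPKM in 1 of 456wt. This equals about 6 fragments in 5 libraries, with a mean of 0.0317 ± 0.0285 FPKM (SD, n = 4), the highest of the family. Tas2r143 had 0.09, 0.07 and 0.08 FPKM in 1 library each of 186wt, 343wt and 444wt. Tas2r108 had 0.07 FPKM in 2 libraries of 343wt and 0.08 FPKM in 1 of 456wt, and Tas2r137 had 0.07 FPKM in 1 library of 444wt. The levels of these 4 genes overlapped within their spread, and their order is not resolved at 1 to 6 fragments each.

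In the trace amine family, Taar5, a receptor for trimethylamine, was the 1 gene of 16 with any fragment. It had 0.06 and 0.05 FPKM in 2 libraries of 343wt, 0.06 FPKM in 1 of 444wt and 0.06 FPKM in 1 of 456wt, a mean of 0.0192 ± 0.015 FPKM (SD, n = 4). No library of 186wt held a fragment. Taar1, which unlike most of the family is known for roles outside the nose, was at 0 in all 12 libraries.

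Among the formyl peptide receptors, Fpr1 had 0.05 FPKM in 1 library each of 186wt, 444wt and 456wt, and Fpr2 had 0.12 FPKM in 1 library of 444wt. Their means were 0.0125 ± 0.00833 and 0.01 ± 0.02 FPKM (SD, n = 4), from about 3 and 2 fragments. Fpr2 and Fpr3 share 48 bp of exon on the same strand, and Fpr3 was at 0. Fpr3 and the 4 Fpr-rs genes were at 0 in all libraries. Macrophage markers were present in the same RNA, with all 9 at 0.1 FPKM or more (55.3% of all genes). All 9 were also called different between numbers (58.2% of all genes tested). Their sums were 28.6 FPKM in 186wt, 60.4 in 343wt, 13.3 in 444wt and 50.6 in 456wt. Lyz2 at 8.005 and C1qb at 6.12 FPKM were the highest. With about 3 fragments of Fpr1 in all, its levels in the 4 numbers could not be compared with these sums. Neutrophil markers at 0.1 FPKM or more were 4 of 9, against 55.3% of all genes. All 9 together summed to 1.45, 1.33, 1.74 and 7.0 FPKM in the same order of numbers. Of these, Cxcr2 (1.30 FPKM) and S100a9 (0.568 FPKM) were the highest. Among the 4 tested, S100a8, S100a9 and Ngp were called, a count too small to set against the 58.2% of all genes tested. Ly6g, a defining marker of neutrophils, was at 0 in all libraries.

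Together the 8 members with few fragments had 25 fragments in 23 of 96 values, and their means lay between 0.00583 and 0.0317 FPKM. None was tested by limma, because none reached a mean of 0.1 FPKM.

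The receptors lie on 6 chromosomes, most of them in runs of neighbouring genes, and several runs at or near 0 lay beside genes that were measured. The run with the most members, from Tas2r120 to Tas2r140 on chromosome 6 (132606975 to 133005834), held 18 Tas2r genes with no other gene between them, and all were at 0. Its neighbours on either side were A630073D07Rik at 0.437 FPKM and 2700089E24Rik at 11.7 FPKM. The next genes beyond these neighbours were at 0 or near it, with Prp2 at 0.00583 FPKM and Kap at 0. All 16 Taar genes lie within 189.2 kb of chromosome 10 (23640162 to 23829388), between Vnn1 at 2.84 FPKM and Gm15137 at 1.97 FPKM. The run from Tas2r139 to Tas2r126, with Tas2r135 and Tas2r143, held 9 other genes, of which 7 were at 0.1 FPKM or more, up to Zyx at 111.2 FPKM. By contrast, the 9 other genes between Fpr-rs7 and Fpr-rs3 on chromosome 17 were all below 0.1 FPKM. Tas2r119, alone on chromosome 15, was at 0 between Fam173b at 13.0 FPKM and Snord123 at 11.3 FPKM.

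Tas1r1 and Tas1r3 lie between genes with higher levels. Nol9 starts 752 bp from the start of Tas1r1 on the opposite strand and had a level of 26.4 ± 2.56 FPKM (SD, n = 4), and Zbtb48 lies 242 bp beyond the end of Tas1r1 on the same strand with 13.8 ± 1.35 FPKM. Both were lowest in 186wt (23.7 and 12.6 FPKM), where Tas1r1 was not lowest, and highest in 444wt (29.1 and 15.6 FPKM), as Tas1r1 was. The end of Tas1r3 overlaps by 36 bp of exon with the end of Dvl1 on the opposite strand, and Dvl1 had 43.7 FPKM in 186wt, 33.0 in 343wt, 43.2 in 444wt and 42.5 in 456wt. Its lowest number was that of Tas1r3. Whether counting used strand is not given in the sources used here, so reads in the 36 shared bases cannot be told apart, and reads running past annotated ends were not tested. Tas1r2 lies between Aldh4a1 (9.42 FPKM) and Pax7 (0.443 FPKM).

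**Figure D3:**
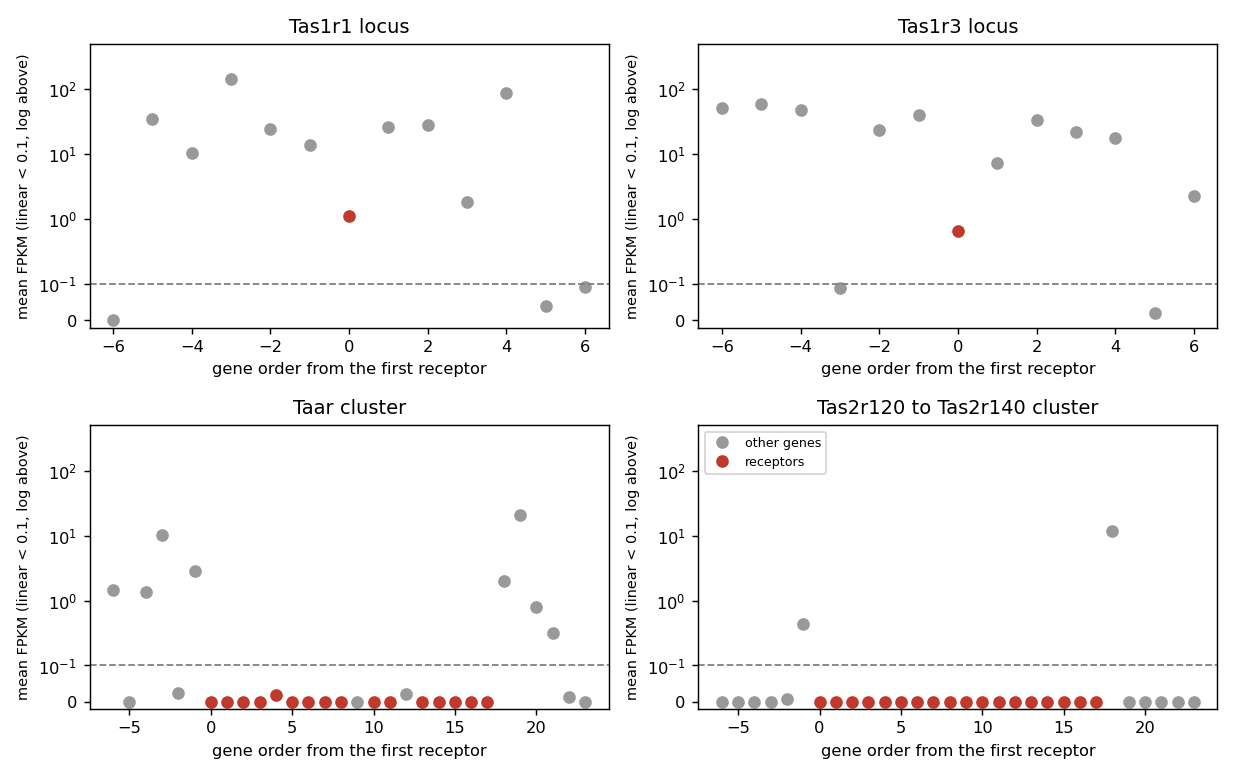
Each panel plots mean FPKM (linear below 0.1, log above) against gene order along the chromosome, with 0 at the first receptor, for the Tas1r1 and Tas1r3 loci, the Taar cluster and the Tas2r120 to Tas2r140 cluster. Receptors are red, other genes grey, and the dashed line marks 0.1 FPKM. The 18 Tas2r genes are at 0 between neighbours at 0.437 and 11.7 FPKM, and Tas1r1 and Tas1r3 lie above the line but below their nearest neighbours. The plotted genes beyond the 2 neighbours of the Tas2r cluster are at 0, apart from Prp2 at 0.00583 FPKM.

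Values of near-identical genes depend on how reads are divided, so sequence shared between members was measured. No 100-base stretch of the 3 Tas1r genes occurred in a transcript of another gene. Coding sequences of the 3 Tas1r genes were between 52.3% and 55.2% identical. Of all 61 members 13 shared a 100-base stretch with another gene and 48 did not. The 13 were 9 Taar, 2 Tas2r and 2 Fpr genes, and all were at 0. Taar8c shared the most, with 52.6% of its stretches, and its coding sequence was 98.1% identical to that of Taar8a. The most different place that Taar8a and Taar8c share against Taar8b is shown as an example, bases 835 to 894 of each coding sequence, with bases of Taar8b that differ in capitals.
Taar8a: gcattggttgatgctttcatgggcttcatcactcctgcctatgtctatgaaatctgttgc
Taar8c: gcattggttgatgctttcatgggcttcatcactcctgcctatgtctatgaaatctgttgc
Taar8b: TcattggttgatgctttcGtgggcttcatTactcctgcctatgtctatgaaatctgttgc
Even here Taar8b differed at 3 of 60 bases. No member with a value above 0 shared such a stretch.

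The taste transduction list holds partners through which taste receptors signal and also channels of sour taste cells (Pkd2l1, Pkd1l3 and Otop1). Of its 14 genes 13 were in the table, and 9 of them were at 0.1 FPKM or more (55.3% of all genes) and 6 were called different between numbers (58.2% of genes tested). Gnat3, the gustducin alpha subunit, was below 0.1 FPKM, with 0.06, 0.03, 0 and 0.02 FPKM in 186wt, 343wt, 444wt and 456wt. Gnb3, a beta subunit of taste cells, was at 0.0833 FPKM, and Rgs21, a regulator of taste cell G proteins, was at 0 in all libraries. Plcb2, the phospholipase of the taste cascade, had 0.287, 0.32, 0.337 and 0.443 FPKM and was not called (limma adjusted p = 0.508).

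Genes of the cascade that are also used widely were the highest, namely Gnb1 (356.7 ± 23.4 FPKM) and the calcium release channel Itpr3 (13.8 ± 1.89 FPKM; SD, n = 4). Trpm5, the cation channel that depolarises taste cells, had 1.36, 1.22, 1.97 and 2.25 FPKM in 186wt, 343wt, 444wt and 456wt and was called (limma adjusted p = 0.00279). Gng13, the gamma subunit that partners gustducin, had 4.65, 6.42, 7.16 and 9.35 FPKM (limma adjusted p = 0.0135), and Pkd2l1, a channel of sour taste cells, had 2.70, 3.14, 3.70 and 4.35 FPKM (limma adjusted p = 6.94e-05). Both were lowest in 186wt and highest in 456wt. Trpm4, a related cation channel, had 8.90, 8.67, 4.79 and 6.25 FPKM (limma adjusted p = 6.82e-07), so 444wt, which was highest for Tas1r1, was lowest for Trpm4.

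For the olfactory cascade used by TAAR neurons, 7 of 10 genes reached 0.1 FPKM (55.3% of all genes). Of these 7, 3 were called (58.2% of all genes tested). Ric8b, a chaperone of the olfactory G protein, was highest at 16.3 ± 1.19 FPKM, followed by the adenylyl cyclase Adcy3 at 8.47 ± 1.59 FPKM, and the channel subunit Cngb1 had 1.65 ± 0.401 FPKM (SD, n = 4). These were the 3 called. The G protein Gnal had 0.594 FPKM and the channel subunit Cnga2 had 0.162 FPKM, while Rtp1 and Rtp2, which carry olfactory receptors to the surface, were at 0.00583 and 0.00667 FPKM. All 3 vomeronasal partners reached 0.1 FPKM and were called, a count too small to set against these shares. Gnai2 was at 158.1 ± 14.2, the channel Trpc2 at 28.7 ± 4.68 and Gnao1 at 8.27 ± 2.37 FPKM.

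For formyl peptide signalling all 13 genes reached 0.1 FPKM (55.3% of all genes). Of them 8 were called, a share close to the 58.2% of all genes tested. Gnai2 and Cyba, a subunit of the phagocyte oxidase found in many cells, were the highest, with Cyba at 17.3 ± 4.50 FPKM (SD, n = 4). The oxidase genes of phagocytes Ncf1, Ncf4 and Cybb were between 0.422 and 0.659 FPKM, and of them Ncf1 was called. Anxa1, whose product is a ligand of FPR2, had 3.81, 6.63, 5.65 and 9.90 FPKM in 186wt, 343wt, 444wt and 456wt (limma adjusted p = 1.26e-05). Camp, whose peptide is also a ligand of FPR2, had 1.14, 0.113, 0 and 1.93 FPKM and was called (limma adjusted p = 6.67e-06), as were the kinase genes Fgr and Pik3cg. In the same RNA the receptors Fpr1 and Fpr2 had about 3 and 2 fragments.

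**Figure D4:**
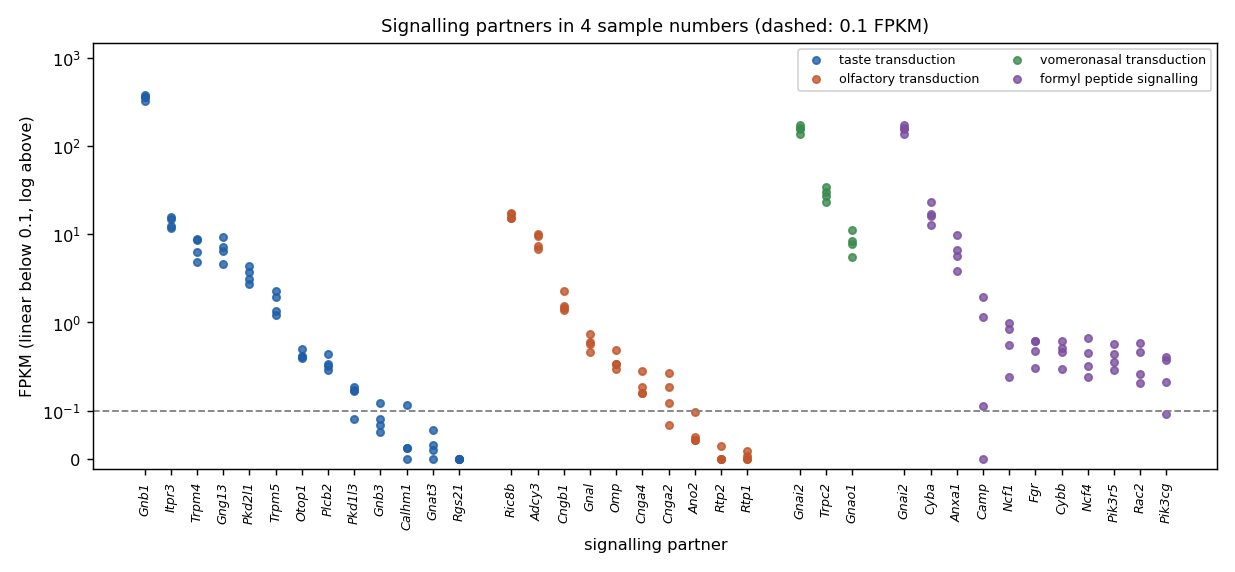
FPKM (linear below 0.1, log above) of signalling partners by list, with 1 point for each of the 4 sample numbers, the highest mean first within a list and a dashed line at 0.1 FPKM. Gnb1, Gnai2 and Trpc2 are the highest of their lists or near it, while Gnat3 and Rgs21 of the taste list lie below the line.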

How the data were processed

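The deposited values were FPKM. To make them, the authors used BowTie 0.12.9 for 100-bp reads against the transcripts of NCBI build 37. Reads kept had fewer than 2 mismatches, and RSEM 1.2.8 gave the FPKM. FPKM were rounded to 2 decimals, had 1 column per library and summed to between 477629 and 485096 in a library. Depth was estimated from the steps of single fragments.

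The 3 libraries of a sample number were averaged, and a mean ± SD is over 4 numbers. The test between numbers took genes whose mean reached 0.1 FPKM and was run with limma 3.58.1 (R 4.3.3; lmFit, eBayes with trend, F-test, pseudocount 0.1). It was adjusted by Benjamini-Hochberg over all genes tested, with a threshold of 0.05. Genes were placed with GENCODE M1 on build 37, promoters came from RefSeq, and shared stretches from annotated transcripts. Identity is of coding bases, since protein sequences were not used here.

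Named genes were members at 0.1 FPKM or more, called members, the 5 highest of each family, genes overlapping them, Prdm9 and Dmc1, and of each list the 2 highest genes, those at 0 and those called. Neighbours and further genes of the lists were chosen after their values were seen. For 2 genes of the formyl peptide signalling list, single values are not reported here. The members and lists were chosen with earlier results of these data known.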

Additional observations from a re-analysis of the deposited data

Results flagged for a closer look

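Of 27 values compared over the 4 sample numbers (10 members with any fragment, the sums of the 4 families and the sums of 13 gene lists), 4 had 1 number apart from the other 3 by Dixon's test of the gap over the range, where chance sets apart about 1 in 20 groups of continuous values. Fpr1 was at 0 FPKM in 343wt and at 0.0167 FPKM in each of the others. Fpr2 was at 0.04 FPKM in 444wt and 0 in the others, and Tas2r137 was at 0.0233 FPKM in 444wt and 0 in the others. Each of these rests on 1 to 3 fragments and on tied values, for which the gap equals the whole range by construction and the chance share does not apply. The neutrophil markers summed to 7.0 FPKM in 456wt and to between 1.33 and 1.74 FPKM in the others.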

How the results depend on the processing

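The 2 expressed members became 10 with any value above 0 FPKM (Tas2r 4, Taar 1, Fpr 2) and 1 with a mean of at least 1 FPKM (Tas1r 1). The count stayed at 2 under the other settings tried and with each library or sample number left out. The members that differed between numbers were 1 by limma and 0 with no filter on low values or with a mean of at least 1 FPKM (Tas1r1 limma adjusted p = 0.0682 and 0.0532), with the cause not tested, and between 0 and 1 with 1 library or number left out. The Tas1r1 adjusted p from limma was 0.216 without 343wt and 0.143 without 444wt, and it passed the threshold in 11 of 22 alternatives, while Tas1r3 passed in 0 of 21 (0.102 to 0.834). With the library number as a replicate block 1 member and 11774 of all genes were called (Tas1r1 limma adjusted p = 0.0445). Whether same-numbered libraries of different sample numbers shared a batch is not given in the sources used here. Their deviations from the mean of their sample number correlated between -0.0407 and 0.0299, and those of other libraries between -0.0338 and 0.0403. Such correlations over all genes tested cannot show that no batch was shared. The depth estimate, the protein-coding background and the limit of 3 fragments were added after seeing the data. Depth limits the 59 low members, where 1 fragment is the unit of every value.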
